A study of Mus musculus with 12 samples.

Results

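B16 melanomas grown from F0 cells were sorted into a tumor fraction and a microenvironment fraction, and the RNA of these fractions was compared across all genes measured. The samples were chosen by their labels: of the 12 arrays in the series, the 4 made from F0 tumors were compared, 2 of the tumor fraction and 2 of the microenvironment fraction. B16 is a pigmented mouse melanoma line of C57BL/6 origin, and F0 denotes cells taken from culture that, per the sample labels, had met no checkpoint inhibitor before. Each F0 replicate, named B2 or B3, was a pool of the tumors of 3 C57BL6 mice injected subcutaneously in the right flank with 25000 cells, whose tumors were taken at 100 to 400 mm3. The pooled tumors were digested and sorted on tdTomato, a red fluorescent protein: positive cells formed the tumor fraction and negative cells the microenvironment fraction, so the fractions of a pool came from the same mice. The other 8 arrays held the same fractions of 4 pools (A to D) of F4 tumors, grown from B16 cells that the labels describe as resistant after earlier checkpoint inhibitor therapy and as under that therapy. They entered the model as part of the estimate of the spread and as the comparison group at the end.

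The labels disagree on treatment. The treatment tag of all 4 F0 samples says that they received no checkpoint inhibitor, whereas the treatment protocol gives F0 and F4 mice alike 3 injections of checkpoint inhibitor together with Fvax, a vaccine of B16 cells that express Flt3 ligand, and the series design likewise gives the mice 3 doses of a combination named 3I. The ages and sex of the mice are not given in the sources used here. All tumor fraction arrays, of F0 and F4 alike, shared a chip, and all microenvironment arrays shared another. Effects of the chip and of the fraction therefore cannot be told apart in either line.

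A transplanted melanoma is a mixture of malignant melanocytes and host cells. Melanocytes make melanin in melanosomes, with Tyr, Tyrp1 and Dct as the pigment enzymes and Mitf as the transcription factor that switches their genes on. The host side of B16 tumors holds T and NK cells, which kill through perforin and granzymes, macrophages and neutrophils of the myeloid lineage, dendritic cells, and the vessels and fibroblasts of the stroma. Checkpoint inhibitors act on receptors such as CTLA-4 and PD-1 that restrain T cells.

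The tumor arrays were brighter than the microenvironment arrays. At a detection p below 0.01, the tumor arrays of pools B2 and B3 detected 9814 and 9830 probes, against 6854 and 7983 on the microenvironment arrays, and the mean raw signal was 484.5 and 468.1 against 165.7 and 200.5. Levels below are log2 intensities after background correction and quantile normalisation, which gives every array the same distribution of signal. Differences are the tumor minus the microenvironment mean on that log2 scale with the standard error of the fit. A gene was called when its adjusted p from limma, with Benjamini-Hochberg adjustment over 7894 genes, was below 0.05. Across genes the tumor arrays of the 2 pools correlated at 0.960 and the microenvironment arrays at 0.897. On the first principal component the microenvironment array of pool B3 lay at 5.56, away from that of pool B2 at 63.4, and nearer to the tumor arrays at -42.1 and -71.2. Among the F4 arrays that share the estimate of the spread, tumor array A lay at 11.9, apart from the other F4 tumor arrays at -68.1 to -46.7, and microenvironment array D lay at 7.45, apart from the other F4 microenvironment arrays at 53.4 to 79.3. With 2 arrays per fraction, their number limits the precision: the median 95% half-width of a difference was 0.877.

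**Figure D1:**
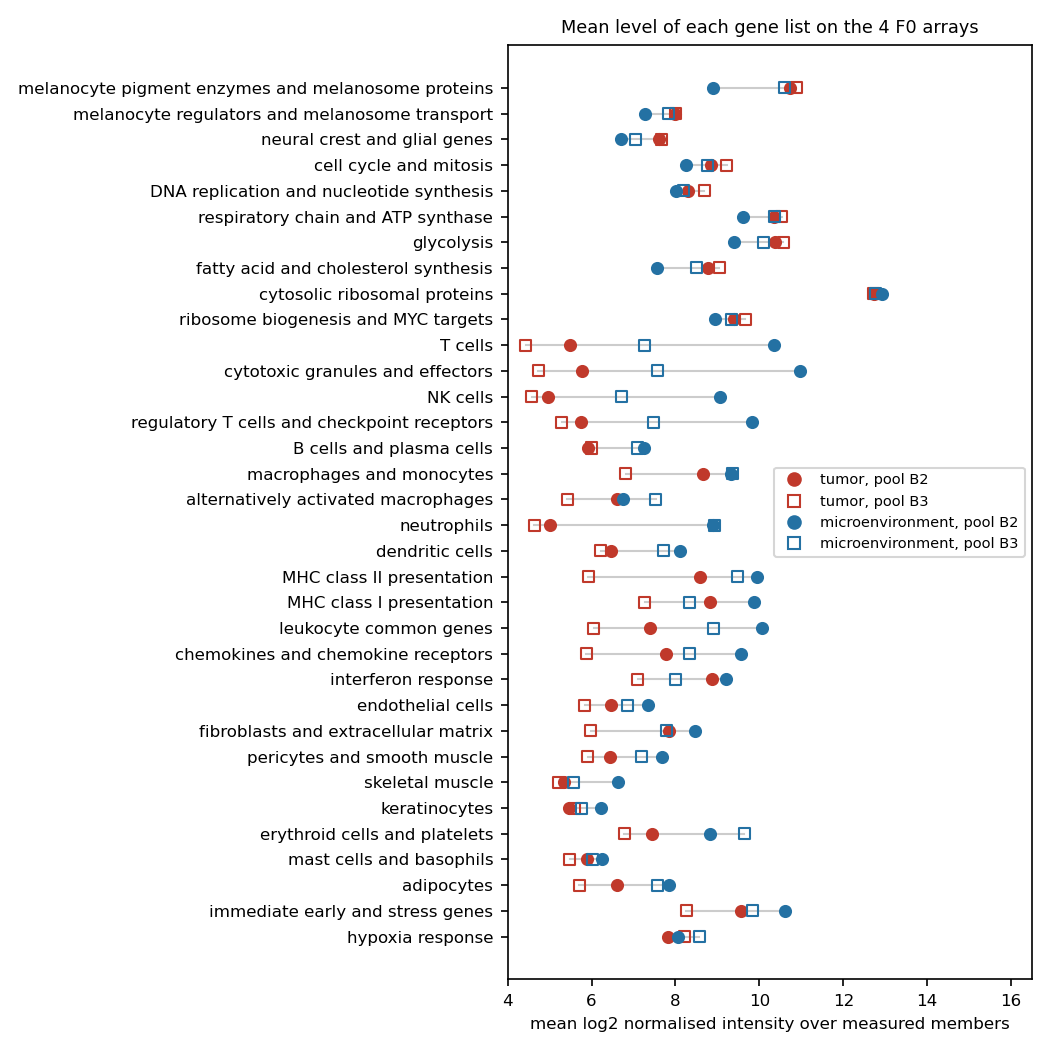
Mean level of each of the 34 gene lists on the 4 F0 arrays, as mean log2 normalised intensity over the members measured. Red marks the tumor and blue the microenvironment fraction, with filled circles for pool B2 and open squares for pool B3. Lymphocyte and neutrophil lists lie far to the right on the microenvironment arrays, and ribosomal proteins lie together between 12.73 and 12.93 on all 4.

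In F0 tumors 72 genes were called between the fractions. Of 7894 genes, 21 (0.266%) were higher and 51 (0.646%) were lower in the tumor fraction. At these shares a short list with no called gene is near what all genes give, and is not a result about its members. At an unadjusted p below 0.05 there were 1023 higher and 921 lower genes. Both tumor arrays lay above both microenvironment arrays for 3043 genes (38.5%) and below both for 1860 (23.6%), and all 72 called genes were among these. A difference of at least 2-fold in the same direction in both pools was seen for 323 genes (4.09%) higher and 739 (9.36%) lower in the tumor fraction, against 10 genes with at least 2-fold differences in opposite directions. With the pool as a block, which compares the fractions of the same mice, 130 genes (1.65%) were called higher and 373 (4.73%) lower, all 72 genes among them. Leaving out 1 array moved these counts by more than 1.5 times in most cases. Without the microenvironment array of pool B3 the counts were 277 (3.51%) higher and 306 (3.88%) lower. Without the microenvironment array of pool B2 they were 0 and 9, without the tumor array of pool B2 0 and 1, and without that of pool B3 0 and 2, each of these fits leaving a fraction with a single array that is assumed to vary like the other groups. The F4 arrays counted too: without F4 tumor array A the counts were 208 and 393, and without F4 microenvironment array D 65 and 137.

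The scale bears on the split between higher and lower. Under quantile normalisation the median difference over all genes was 0.19, and 29.2% of the calls were higher in tumor. When arrays were instead scaled to a common median, the median of all genes moved to -0.35, the counts were 16 higher and 1028 lower, and 1.53% of the calls were higher in tumor. Quantile normalisation within each fraction gave 27 and 1389, with a median of -0.28. Of the 72 called genes, 63 kept their sign under median scaling, and 51 were called there too. Under quantile normalisation within each fraction 70 kept it, and 53 were called. Median scaling moved the median of all genes downward, which goes against calls of higher in tumor. The genes called higher in tumor that are followed below shrank under it, and of these Wnk4 and Ptgir turned negative. The other called genes that turned are not named here, so Wnk4 and Ptgir are only part of them.

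Genes of neutrophils, the granulocytes that enter inflamed tissue first, were far lower in the tumor fraction, and by a like amount in both pools. Of 17 listed genes 9 were measured and 4 were called lower in the tumor fraction, where 0.646% of all genes were, with a list median of -3.90 beside 0.19 over all genes. All 9 had both tumor arrays below both microenvironment arrays, against 23.6% of all genes. S100a8 encodes one chain of calprotectin, the most abundant protein of neutrophil cytoplasm. It stood at 5.63 and 4.75 on the tumor arrays of pools B2 and B3 and at 11.90 and 12.76 on the microenvironment arrays, a difference of -7.14 ± 0.96 (adjusted p = 0.00866, limma). The raw signals behind these levels were 162 and 110 against 1372 and 3627. S100a9, the partner chain, stood at 4.64 and 4.41 against 10.55 and 11.33. It was not detected on the tumor arrays and was at least 54.7-fold higher in the microenvironment (adjusted p = 0.0169, limma). A fold written "at least" here sets the brighter fraction against the lowest signal that counted as detected on the dim arrays. Such a bound holds within the main processing only, and other processing gave smaller differences than the bound for some genes. Both chains were high on both microenvironment arrays and low on the tumor arrays, with no overlap.

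Retnlg, a secreted resistin-like protein of neutrophils, stood at 4.34 and 4.45 against 9.15 and 9.18 and was at least 16-fold higher in the microenvironment (adjusted p = 0.00345, limma). Hdc makes histamine from histidine and is expressed by immature myeloid cells, mast cells and basophils. It stood at 5.99 and 5.08 against 11.42 and 11.22, a difference of -5.79 ± 0.93 (adjusted p = 0.0193, limma). The other 5 members had adjusted p values of 0.0743 to 0.312. Among them were the interleukin-1 decoy receptor Il1r2 at -3.90 ± 1.02, the granule protease Mmp9 at -2.45 ± 0.67 and the G-CSF receptor Csf3r at -2.23 ± 0.58. The mean of the list was 8.89 and 8.94 on the microenvironment arrays, so the pools lay close together here, and 5.02 and 4.63 on the tumor arrays. Of the 9 genes, 3 were detected on the tumor array of pool B2 and 0 on that of pool B3. In bulk samples such as these, fewer cells of a type and less RNA per cell cannot be told apart.

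**Figure D2:**
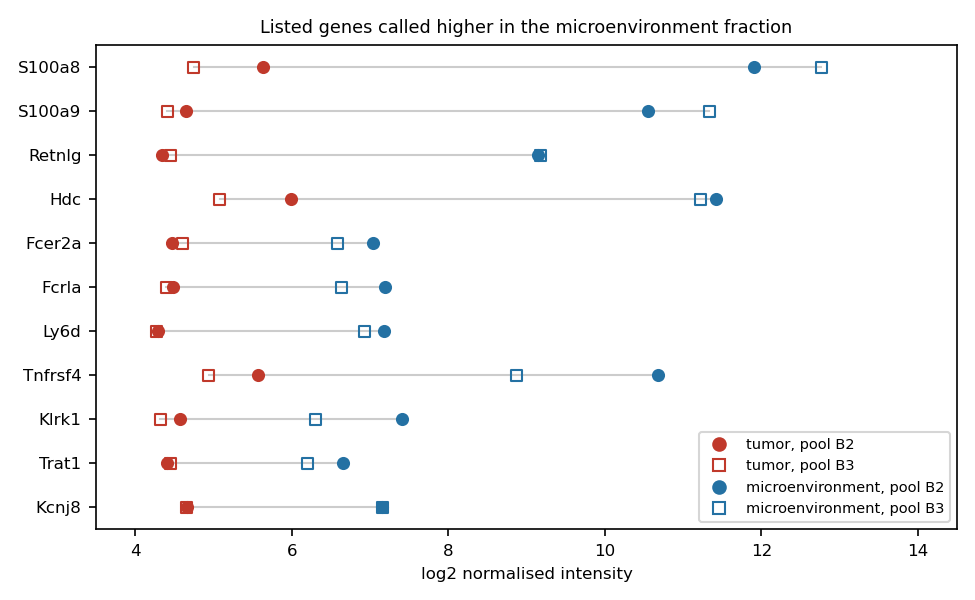
Levels (log2 normalised intensity) of the 11 listed genes that were called, on the 4 F0 arrays, with red for tumor, blue for microenvironment, circles for pool B2 and squares for pool B3. All 11 were higher in the microenvironment, and the tumor arrays lie between 4.28 and 5.99.

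T cell genes were far higher on the microenvironment array of pool B2 than on that of pool B3. Of 20 listed genes 15 were measured, and all 15 had both tumor arrays below both microenvironment arrays, against 23.6% of all genes. Their median difference was -4.30, but 1 was called, against 0.646% of all genes. That gene, Trat1, an adaptor of the T cell receptor complex, stood at 4.41 and 4.45 against 6.66 and 6.20 and was at least 2.4-fold higher in the microenvironment (adjusted p = 0.0477, limma). Cd3e, a signalling chain of the T cell receptor, stood at 5.72 and 4.32 on the tumor arrays and at 11.68 and 7.95 on the microenvironment arrays, a difference of -4.79 ± 1.51 that did not pass (adjusted p = 0.108, limma). Cd3d, another chain of that receptor, stood at 6.33 and 4.35 against 12.06 and 8.96, with a difference of -5.17 ± 1.51. The CD8 beta chain Cd8b1 stood at 7.44 and 4.39 against 12.92 and 9.49, with a difference of -5.29 ± 1.70. In each of these genes the lowest microenvironment array was still above the highest tumor array. With the pool as a block, 12 of the 15 were called lower, against 4.73% of all genes, Cd3e among them (adjusted p = 0.0283). The difference of Cd3e was -6.66 without the microenvironment array of pool B3, where T cell genes were lower than in pool B2. Without the tumor array of pool B2 it was -5.49, and over all alternatives it ranged from -6.66 to -2.93. A fit without an F0 array leaves a single array in a fraction. The list mean was 10.35 and 7.26 on the microenvironment arrays and 5.49 and 4.43 on the tumor arrays, where 8 and 0 of the 15 genes were detected.

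Genes of cytotoxic cells were likewise higher on the microenvironment array of pool B2 than on that of pool B3. None of 7 measured granule and effector genes was called, against 0.646% of all genes called lower, and their median was -4.38. With the pool as a block 4 passed as lower, against 4.73% of all genes. Prf1 encodes perforin, which opens pores in target cells. It stood at 7.77 and 6.59 against 13.01 and 12.32, a difference of -5.48 ± 1.37 (adjusted p = 0.0715, limma; 0.0276 with the pool as a block). Nkg7, a protein of cytotoxic granules, stood at 6.74 and 4.33 against 13.18 and 8.86, and Ifng, the interferon that such cells secrete, at 6.13 and 4.31 against 11.64 and 5.74. For Ifng the tumor array of pool B2 lay above the microenvironment array of pool B3, so the fractions overlapped. Of 7 NK cell genes, 1 was called lower, against 0.646% of all genes. This was Klrk1, which encodes the activating receptor NKG2D. It stood at 4.58 and 4.32 against 7.41 and 6.31 and was at least 3.23-fold higher in the microenvironment (adjusted p = 0.0471, limma). Klrd1, the CD94 chain of NK receptors, stood at 4.94 and 4.41 against 11.39 and 8.47, with a difference of -5.26 ± 1.20 (adjusted p = 0.0602, limma).

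Regulatory T cells restrain other T cells and carry the transcription factor Foxp3 and high levels of costimulatory receptors. Of 9 measured genes in the list of these cells and of checkpoint receptors, 1 was called lower, against 0.646% of all genes, and 5 with the pool as a block, against 4.73%. Their median was -2.86. Tnfrsf4, the costimulatory receptor OX40, stood at 5.57 and 4.94 against 10.68 and 8.87, a difference of -4.52 ± 0.80 (adjusted p = 0.0303, limma). Foxp3 stood at 4.79 and 4.80 against 8.19 and 7.11, with a difference of -2.86 ± 0.64 (adjusted p = 0.0570, limma; 0.0353 with the pool as a block). Ctla4, the target of one class of checkpoint inhibitor, stood at 5.08 and 4.36 against 10.31 and 6.98, with a difference of -3.93 ± 1.01 (adjusted p = 0.0736, limma; 0.0288 with the pool as a block). The costimulatory receptors Icos at -3.79 ± 0.80 and Tnfrsf18 (GITR) at -4.55 ± 1.01 also missed the threshold and passed with the block. Neither Foxp3, Ctla4 nor Icos was detected on a tumor array. Cd274, which encodes the PD-1 ligand PD-L1, was detected on all 4 arrays, at 10.29 and 8.87 on the tumor arrays and 11.71 and 10.60 on the microenvironment arrays. Its difference of -1.58 ± 0.62 did not pass (adjusted p = 0.157, limma), and the tumor array of pool B2 was close to the microenvironment array of pool B3. Pdcd1, which encodes PD-1, had no named probe here.

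B cell genes gave some of the smallest p-values although their levels were modest. Of 6 measured genes 2 were called lower in the tumor fraction, against 0.646% of all genes. Fcer2a, the low-affinity IgE receptor CD23 of mature B cells, stood at 4.47 and 4.60 against 7.04 and 6.59 and was at least 3.13-fold higher in the microenvironment (adjusted p = 0.00345, limma). Fcrla, a B cell protein related to Fc receptors, stood at 4.48 and 4.39 against 7.20 and 6.63 and was at least 3.36-fold higher (adjusted p = 0.00676, limma). Cd79b, a signalling chain of the B cell receptor, stood at 5.16 and 4.64 against 7.75 and 7.24 and missed the threshold (adjusted p = 0.0521, limma; 0.0199 with the pool as a block). Its raw signals were low and lay closer, at 138.7 and 106.5 against 140.9 and 144.3. The size of its difference therefore rests on the background correction and normalisation. Fcmr, the receptor for IgM found mainly on B cells, was in no list and stood at 4.42 and 4.30 against 9.29 and 8.22, at least 12.1-fold higher in the microenvironment (adjusted p = 0.0219, limma). Ly6d, a surface protein of B lineage cells and of plasmacytoid dendritic cells in the mouse, had the smallest adjusted p of all 7894 genes (0.000538, limma). It stood at 4.29 and 4.28 against 7.18 and 6.93, at least 3.7-fold higher in the microenvironment. Fcer2a, Fcrla, Fcmr and Ly6d were detected on both microenvironment arrays and on neither tumor array. Xbp1, a transcription factor of secretory cells, and Sdc1, a surface proteoglycan of plasma cells and epithelia, did not pass, with differences of 0.03 ± 0.31 and 1.02 ± 0.41. Ly6d was counted with the dendritic cells, of whose 10 measured genes it alone was called, against 0.646% of all genes. Siglech, a receptor of plasmacytoid dendritic cells, stood at 4.68 and 4.26 against 8.44 and 7.04 and did not pass (adjusted p = 0.104, limma; 0.0350 with the pool as a block).

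**Figure D3:**
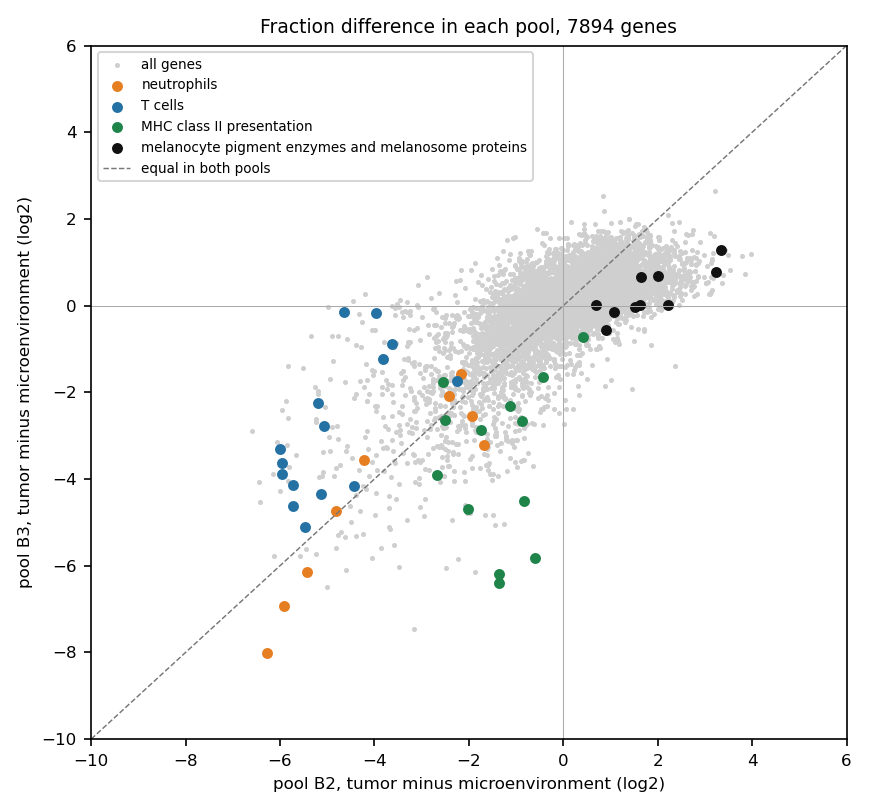
Tumor minus microenvironment difference (log2) in pool B2 on the horizontal and in pool B3 on the vertical axis, 1 point per gene for all 7894 genes, with 4 gene lists in colour and a dashed line where the pools are equal. The points correlated at 0.721. T cell genes lie on the side of the larger gap in pool B2, and MHC class II genes, with H2-Ob as the exception, on the side of the larger gap in pool B3.

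Macrophage and antigen presentation genes were not called, and many of them were nearly as high on the tumor array of pool B2 as in the microenvironment. None of 12 measured macrophage and monocyte genes passed, with or without the block, and their median was -1.15. Over all genes 0.646% were called lower, and 4.73% with the block. Lyz2, the lysozyme of macrophages and neutrophils, stood at 10.76 and 9.51 on the tumor arrays and at 12.19 and 12.49 on the microenvironment arrays (-2.21 ± 1.01, adjusted p = 0.204, limma). C1qb, a complement chain made by tissue macrophages, stood at 11.04 and 8.27 against 10.83 and 10.65, so the tumor array of pool B2 was the highest of the 4. Chil3 (Ym1) and Arg1, both known from alternatively activated macrophages of the mouse, differed by -3.33 ± 0.94 and -3.14 ± 1.34 and did not pass (adjusted p = 0.0845 and 0.181, limma).

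MHC class II molecules present peptides to CD4 T cells and are made by dendritic cells, macrophages and B cells, and by other cells after exposure to interferon gamma. None of 13 measured genes of this pathway was called, where 0.646% of all genes were called lower. All 13 had a negative difference, with a median of -2.57, and 11 had both tumor arrays below both microenvironment arrays, against 23.6% of all genes. H2-Ab1, a beta chain, stood at 11.46 on the tumor array of pool B2 and at 6.19 on that of pool B3, against 12.83 and 12.38 on the microenvironment arrays. Cd74, the invariant chain, stood at 12.35 and 6.72 against 12.95 and 12.54. Its raw signal on the tumor arrays was 8672 and 248. The list mean was 8.58 on the tumor array of pool B2 and 5.92 on that of pool B3, and 9.94 and 9.47 on the microenvironment arrays. The 5 genes with the widest gap between pools, among those detected on all 4 arrays, were H2-Ab1, Arg1, H2-Eb1, H2-DMa and Cd74. Beside this, the mean of the macrophage list was 8.65 and 6.81 on the tumor arrays and that of the fibroblast and matrix list 7.84 and 5.97, both higher in pool B2, whereas the T cell list mean of 5.49 and 4.43 and the neutrophil list mean of 5.02 and 4.63 were low on both. The part of other cell types in these levels was not tested.

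**Figure D4:**
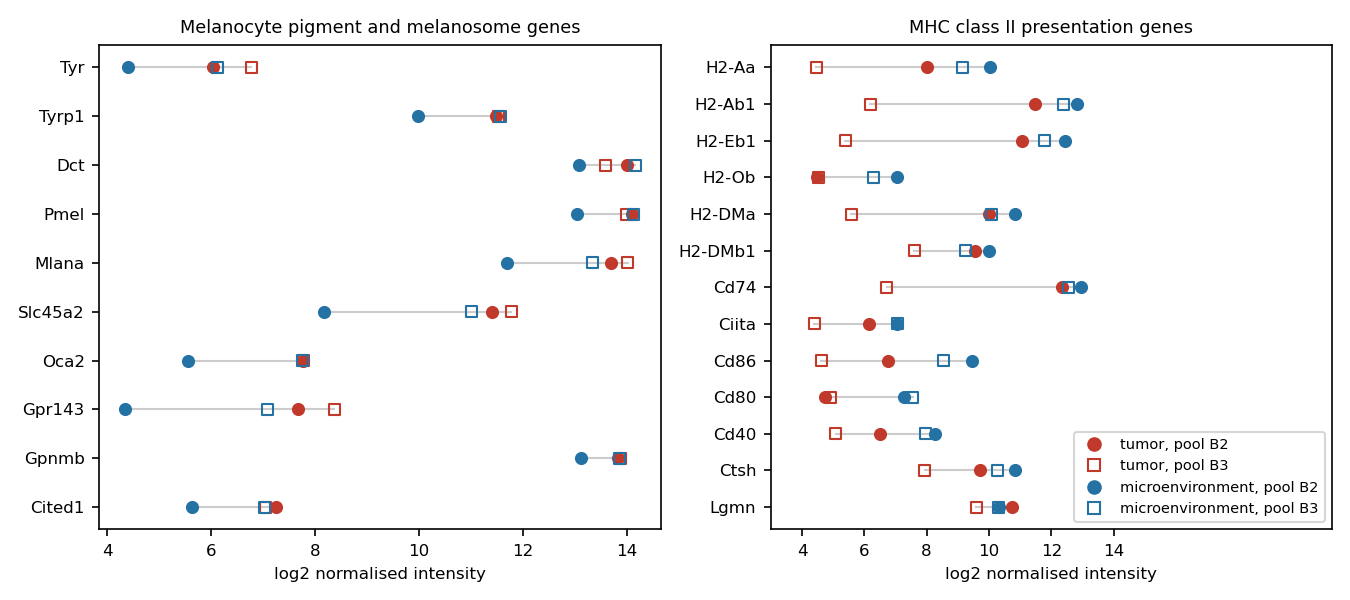
Levels (log2 normalised intensity) of 10 melanocyte pigment and melanosome genes (left) and 13 MHC class II presentation genes (right) on the 4 F0 arrays, with red for tumor, blue for microenvironment, circles for pool B2 and squares for pool B3. On the left the microenvironment array of pool B2 is lowest in each gene while that of pool B3 lies near the tumor arrays. On the right the tumor array of pool B3 is lowest or near the lowest while that of pool B2 lies near the microenvironment arrays for several genes, H2-Ab1 and Cd74 among them.

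Class I presentation, interferon response and chemokine genes were not called, where 0.646% of all genes were called lower. These lists had 15, 21 and 21 measured members, and their medians were -1.08, -0.51 and -2.11. B2m, the light chain of class I molecules, stood at 13.59 and 13.15 against 13.97 and 13.50 (-0.37 ± 0.27, adjusted p = 0.382, limma). The class I heavy chain H2-K1 stood at 5.90 and 4.69 against 8.30 and 5.82, and did not pass (adjusted p = 0.200, limma; 0.0436 with the pool as a block). Class I heavy chain genes are near-identical copies, so which of them a probe such as that of H2-K1 reads is uncertain. With the block, 4 class I genes were called lower, against 4.73% of all genes: the peptide transporter Tap2 and the class I genes H2-T23 and H2-Q7 besides H2-K1. Of the chemokine list 4 were called lower with the block, against the same 4.73%, among them Xcl1, a chemokine of activated CD8 T and NK cells that draws cross-presenting dendritic cells. Xcl1 stood at 5.78 and 4.31 against 12.36 and 7.20 (-4.74 ± 1.41; adjusted p = 0.0959, limma; 0.0283 with the pool as a block). The macrophage inflammatory protein Ccl3 stood at 9.35 and 6.73 against 12.28 and 11.20 (adjusted p = 0.104, limma; 0.0350 with the pool as a block). Of the interferon list 1 gene was called lower with the block, against the same 4.73%. This was Irf1 (-1.34 ± 0.84; adjusted p = 0.319, limma; 0.0436 with the pool as a block). Rsad2 and Isg15, both induced by type I interferon, were detected on all 4 arrays and differed by -0.72 ± 0.37 and -0.80 ± 0.44 (adjusted p = 0.253 and 0.276, limma).

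Genes common to all leukocytes lay lower in the tumor fraction without passing. All 16 measured genes had both tumor arrays below both microenvironment arrays, against 23.6% of all genes. Their median was -2.99, and 0 were called, against 0.646% of all genes called lower. With the pool as a block 10 were called lower, against 4.73% of all genes. Cytip, a scaffold protein of lymphocyte adhesion, stood at 8.46 and 5.10 against 13.05 and 11.20 (-5.35 ± 1.43, adjusted p = 0.0778, limma). Coro1a, an actin regulator of leukocytes, stood at 8.72 and 6.57 against 12.71 and 11.40 (-4.41 ± 1.30, adjusted p = 0.0947, limma). The list mean was 7.39 and 6.05 on the tumor arrays, where 12 and 8 of the 16 genes were detected. Ptprc, which encodes CD45, had no named probe here.

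Stromal genes were divided. Of 14 endothelial, 20 fibroblast and matrix and 5 pericyte and smooth muscle genes measured, Kcnj8, a potassium channel subunit of pericytes, was called lower, where 0.646% of all genes were. It stood at 4.66 on both tumor arrays and at 7.16 on both microenvironment arrays, at least 3.97-fold higher (adjusted p = 0.0306, limma). Pecam1 (CD31), an adhesion molecule of endothelium, stood at 4.82 and 4.37 against 7.29 and 5.79 (-1.95 ± 0.72, adjusted p = 0.143, limma). Mmrn2, an endothelial matrix protein, stood at 5.37 and 4.53 against 7.65 and 7.73 (-2.74 ± 0.69; adjusted p = 0.0715, limma; 0.0436 with the pool as a block). Eng, the TGF-beta coreceptor endoglin, went the other way, at 8.28 and 8.20 on the tumor arrays against 6.60 and 6.82 (1.54 ± 0.36; adjusted p = 0.0664, limma; 0.0388 with the pool as a block). Col1a1, a chain of type I collagen, stood at 7.88 and 4.41 against 7.87 and 7.14 (adjusted p = 0.579, limma), so its level on the tumor array of pool B2 matched that of the microenvironment. Alas2 and Slc4a1, of haem synthesis and the membrane of red cells, differed by -4.94 ± 1.23 and -4.41 ± 1.05 and did not pass (adjusted p = 0.0712 and 0.0664, limma; 0.0199 and 0.0237 with the pool as a block). Alas2 passed in 8 of 26 alternatives and Slc4a1 in 10. Hba-a1, a haemoglobin chain, was at the top of the scale, 14.79, on both microenvironment arrays and at 13.73 and 12.74 on the tumor arrays. None of 12 skeletal muscle and 3 keratinocyte genes was called, where 0.646% of all genes were called lower.

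Melanocyte genes were high on the tumor arrays but nearly as high on the microenvironment array of pool B3. None of 10 measured pigment and melanosome genes was called, where 0.266% of all genes were called higher. All 10 differences were positive, with a median of 0.97 beside 0.19 over all genes, and 5 had both tumor arrays above both microenvironment arrays, against 38.5% of all genes. The median was 1.63 in pool B2 and 0.02 in pool B3. Mlana, the melanosome protein MART-1, stood at 13.69 and 14.02 on the tumor arrays and at 11.70 and 13.34 on the microenvironment arrays (1.34 ± 0.75, adjusted p = 0.280, limma). In raw signal, before the arrays were brought to one distribution, Mlana read 21830 and 22082 against 1133 and 6039. Gpr143, a receptor of the melanosome membrane, stood at 7.67 and 8.37 against 4.34 and 7.09 (2.30 ± 1.10, adjusted p = 0.219, limma), and the melanosome transporter Slc45a2 at 11.41 and 11.78 against 8.17 and 11.01 (2.002 ± 1.23, adjusted p = 0.313, limma). Tyr, the rate-limiting enzyme of melanin synthesis, stood at 6.04 and 6.78 against 4.40 and 6.12, and its difference of 1.14 ± 0.85 turned to -0.11 under median scaling. Dct, Pmel and Gpnmb were above 13 on all 4 arrays. Melanocyte markers were thus present on both arrays of the tumor fraction and on those of the microenvironment fraction too: 6 of the 10 genes were detected on its array of pool B2 and all 10 on that of pool B3. tdTomato itself had no probe in the table, so the sort could not be read from the arrays.

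Mitf binds the M-box element in melanocytes, and promoter windows of the pigment enzymes are shown as markers of the melanocyte lineage, beside that of S100a8, a gene called lower in the tumor fraction. The letters TCATGTG were searched on both strands of RefSeq promoter windows (build GRCm38.p6), which run from 250 bases before to 50 after each gene start. They occurred in 4 of 9 pigment gene promoters in the table (Tyr, Tyrp1, Dct and Slc24a5), in 0 of 15 neutrophil promoters, in 4 of 15 macrophage promoters (C1qb, C1qc, Ctss and Ms4a7) and in 4.31% of all 27025 genes. The letters GAGGAAGT, a motif of the myeloid factor PU.1, occurred in 5 of 15 neutrophil promoters (S100a8, Ly6g, Mmp8, Elane and Mpo), in 3 of 15 macrophage promoters, in 0 of 9 pigment gene promoters and in 3.69% of all genes. Dct holds the letters at a second place as well. A match is a description of these letters and not a bound site. The windows below run 5′ to 3′ on the strand of the gene with the match in capitals. That of Tyr is chr7:87493503-87493559 on the minus strand, that of Tyrp1 chr4:80834141-80834197 on the plus strand, that of Dct chr14:118052366-118052422 on the minus strand and that of S100a8 chr3:90668874-90668931 on the plus strand. In S100a8 the capitals are the PU.1 letters read on the opposite strand.
Tyr: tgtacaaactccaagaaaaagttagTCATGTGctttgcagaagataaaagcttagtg
Tyrp1: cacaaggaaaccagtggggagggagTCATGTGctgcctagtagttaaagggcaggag
Dct: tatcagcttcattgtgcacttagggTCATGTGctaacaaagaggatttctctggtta
S100a8: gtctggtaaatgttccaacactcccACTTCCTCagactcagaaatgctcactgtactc
The M-box starts 22 bases before the gene start in Tyr, 47 in Tyrp1 and 151 in the Dct window shown, and the PU.1 letters start 172 before it in S100a8. The difference between fractions was 1.14 ± 0.85 in Tyr, 0.74 ± 0.74 in Tyrp1 and 0.17 ± 0.55 in Dct. None of the 3 passed, and they were not tested against each other. S100a8 had the difference of -7.14 given above.

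Regulators of the melanocyte lineage were not called. None of 14 measured regulator and transport genes passed, with a median of 0.37, where 0.266% of all genes were called higher. Mitf stood at 5.58 and 5.75 against 4.51 and 4.94 and Pax3, another lineage factor, at 5.38 and 5.31 against 4.35 and 4.87. Neither was detected on a microenvironment array, and both differences, 0.94 ± 0.32 and 0.73 ± 0.37, became negative under median scaling. Tfap2a, a neural crest transcription factor, stood at 9.33 and 9.32 against 6.63 and 8.37 (1.83 ± 0.83, adjusted p = 0.203, limma). Of 6 neural crest and glial genes, Lgi4, a secreted protein of glial cells, passed with the pool as a block (1.25 ± 0.32; adjusted p = 0.0736, limma; 0.0447 with the block). Ngfr, the neurotrophin receptor p75, lay lower in tumor at 4.78 and 4.72 against 6.32 and 5.98 (adjusted p = 0.109, limma). Rhox5, a homeobox gene active in many tumor lines, stood at 10.92 and 10.78 against 7.87 and 9.87 (1.98 ± 0.82, adjusted p = 0.173, limma).

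The 21 genes called higher in the tumor fraction were in none of the lists and were of low level. Of these, 20 were not detected on either microenvironment array, and their tumor levels lay between 5.43 and 7.37. Plekhb1, a pleckstrin homology domain protein, had the largest difference, at 7.89 and 7.30 against 4.48 and 6.03 (2.35 ± 0.47, adjusted p = 0.0471, limma), and was detected on 1 microenvironment array. Sil1, which helps the endoplasmic reticulum chaperone BiP to release its clients, stood at 7.37 and 7.17 against 4.65 and 5.50, at least 2.23-fold higher in tumor (adjusted p = 0.0219, limma). Fbp2, a fructose-1,6-bisphosphatase known from muscle, stood at 7.01 and 6.63 against 4.996 and 5.05, at least 1.64-fold higher (adjusted p = 0.0193, limma). Csad, which makes the precursor of taurine, stood at 6.87 and 6.70 against 4.88 and 5.35, at least 1.59-fold higher (adjusted p = 0.0388, limma). In all 4 genes the tumor arrays lay above both microenvironment arrays, which the rule for naming them required. The sizes depended on the scaling: under median scaling the differences were 1.19 in Plekhb1, 0.95 in Sil1, 0.50 in Fbp2 and 0.41 in Csad, and none of the 4 passed. In Sil1, Fbp2 and Csad these differences are smaller than the bounds given above.

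Draxin, a secreted axon guidance protein, stood at 6.35 and 6.20 against 4.35 and 4.85, at least 1.12-fold higher in tumor (adjusted p = 0.0165, limma). The Ras-related GTPase Mras differed by 1.74 ± 0.29, the intraflagellar transport protein Ift88 by 1.66 ± 0.34, Shisa2, an inhibitor of Wnt and FGF receptor maturation, by 1.67 ± 0.32, and the acetyltransferase family member Nat8f1 by 1.69 ± 0.34, with adjusted p values of 0.0219 to 0.0472 (limma). Under median scaling the differences were 0.092 in Draxin, 0.071 in Mras, 0.22 in Ift88, 0.10 in Shisa2 and 0.12 in Nat8f1, and none of the 5 passed. Their bounds lay between 1.06-fold and 1.31-fold, so the size of these differences rests on levels at which the microenvironment arrays did not detect the gene. Wnk4, a kinase that regulates ion transport, differed by 1.64 ± 0.31 (adjusted p = 0.0425, limma), and its sign turned under median scaling, to -0.073. No bound could be given for Wnk4, Ptgir and several other genes called higher in tumor. Their mean tumor levels did not exceed the mean of the lowest detected levels of the microenvironment arrays, 6.37 and 5.85. In the detection calls, 1006 of the 7894 genes (12.7%) were detected on both tumor arrays and neither microenvironment array. The other way it was 154 (1.95%), with 4604 detected on all 4. Detection does not depend on the scaling between arrays but does depend on their brightness. The mean raw signal was 484.5 and 468.1 on the tumor arrays against 165.7 and 200.5, so the excess cannot be told apart from brightness. At a detection p below 0.05 these counts were 463 on both tumor arrays only and 180 on both microenvironment arrays only.

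**Figure D5:**
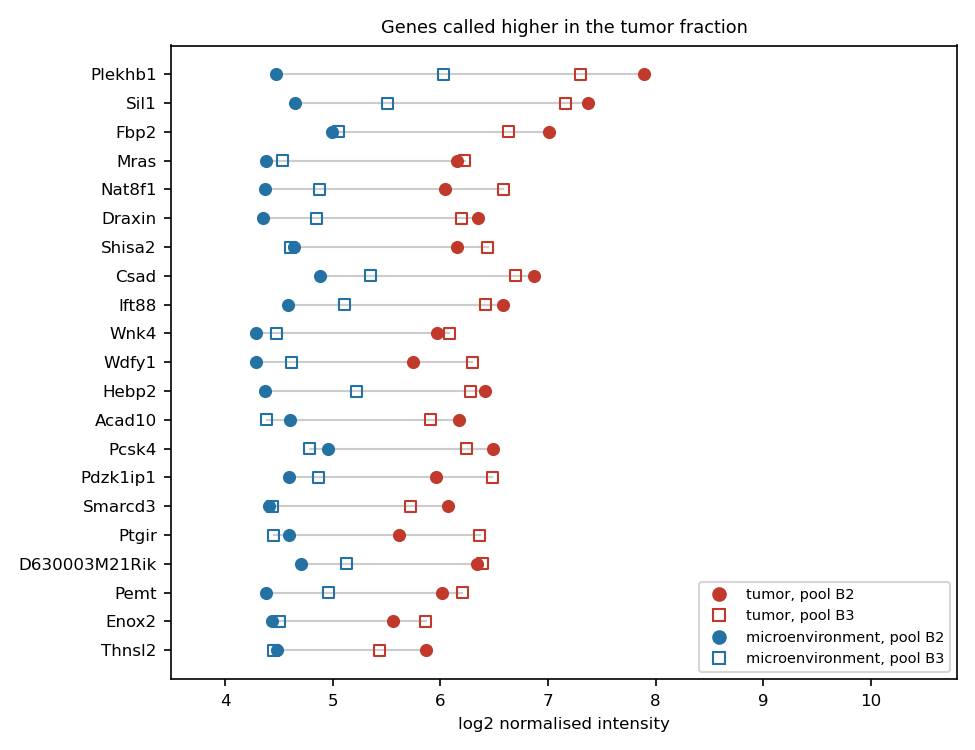
Levels (log2 normalised intensity) of the 21 genes called higher in the tumor fraction, on the 4 F0 arrays, with red for tumor, blue for microenvironment, circles for pool B2 and squares for pool B3. The microenvironment points lie between 4.29 and 6.03, and no gene exceeds 7.89 on a tumor array.

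Among the 51 genes called lower in the tumor fraction, 34 were not detected on either tumor array. Several of them were in no list. Hsd3b2, a dehydrogenase of steroid synthesis, stood at 9.08 and 8.60 against 13.86 and 13.90, raw signals of 1001 and 751 against 7015 and 10353 (-5.04 ± 0.82, adjusted p = 0.0206, limma). Sfi1, a centrin-binding protein of the centrosome, stood at 4.48 and 4.78 against 9.00 and 9.39 (-4.57 ± 0.45, adjusted p = 0.00200, limma). A second probe of Sfi1 differed by -0.85, and a second probe of Hsd3b2 by -2.38, so the sizes depend on the probe used. The Sfi1 levels on the tumor arrays lay below the lowest detected level there, 5.17. Ern2, a stress sensor of the endoplasmic reticulum known from mucosal epithelium, stood at 4.60 and 4.60 against 8.78 and 8.83 and was at least 12.4-fold higher in the microenvironment (adjusted p = 0.0472, limma). Cstdc4, of the stefin family of protease inhibitors, stood at 4.28 and 4.43 against 8.53 and 8.59, at least 10.5-fold higher (adjusted p = 0.0291, limma). In all 4 genes the microenvironment arrays of the pools lay close together. Pglyrp1, a peptidoglycan-binding protein of neutrophil granules, and Slpi, an inhibitor of neutrophil elastase, were also called, with differences of -3.91 ± 0.74 and -4.01 ± 0.81, and were chosen for mention after their values were seen.

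No gene of the growth and metabolism lists was called, where 0.266% of all genes were called higher and 0.646% lower. The medians were 0.46 for 14 cell cycle genes, 0.42 for 20 replication genes, 0.48 for 34 respiratory chain genes, 0.71 for 14 glycolysis genes, 0.87 for 16 genes of fatty acid and cholesterol synthesis and 0.40 for 12 genes of ribosome biogenesis. These stand beside 0.19 for all genes. All 16 lipid synthesis genes had positive differences, and 11 had both tumor arrays above both microenvironment arrays, against 38.5% of all genes. Dhcr7, the last enzyme of cholesterol synthesis, stood at 6.30 and 6.69 against 4.48 and 5.21 (1.65 ± 0.42; adjusted p = 0.0721, limma; 0.0350 with the pool as a block). Top2a, a topoisomerase of dividing cells, stood at 7.99 and 8.52 against 7.73 and 7.88 (0.45 ± 0.87, adjusted p = 0.753, limma). Cytosolic ribosomal proteins had a median of -0.05 over 23 genes, which became -0.68 under median scaling, where the median of all genes was -0.35.

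Immediate early and stress genes, which can be induced while tissue is digested, had a median of -1.22 over 17 genes. None of them was called, where 0.646% of all genes were called lower. The list mean was 9.56 and 8.26 on the tumor arrays and 10.60 and 9.85 on the microenvironment arrays. Egr1 stood at 10.51 and 7.03 against 11.999 and 11.85 (-3.16 ± 0.93, adjusted p = 0.0945, limma), while Fos stood at 11.21 and 11.33 against 11.48 and 11.75. Junb passed with the pool as a block (-2.16 ± 0.61; adjusted p = 0.0864, limma; 0.0321 with the block). The heat shock protein gene Hspa1a differed by -2.91 ± 0.95 (adjusted p = 0.114, limma). Hypoxia genes had a median of -0.38 over 9 genes, with the oxygen sensor Egln3 at -2.17 ± 0.70 and the vessel growth factor Vegfa at -0.40 ± 0.27, neither of which passed. A second probe of Vegfa had a difference of the opposite sign, 0.16. The part of tissue handling in the other lists was not tested.

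The fraction difference in F0 tumors was then set against that in F4 tumors. No gene (0%) passed in the test of the difference between them (limma, smallest adjusted p = 1), and 97 genes (1.23%) had an unadjusted p below 0.05. Of the 72 genes called in F0 tumors, 71 had the same sign in F4 tumors and 68 were also called there. Of all 7894 genes, 1053 were called higher and 886 lower in F4 tumors. Both contrasts used the same estimate of the spread of each gene, so the 2 sets of calls are not independent. S100a8 differed by -5.19 in F4 tumors beside -7.14 in F0 tumors, and Cd3e by -4.74 beside -4.79. The 5 genes with the smallest p for the difference, leaving out the clone-named D630003M21Rik, were Zp3, Ptgir, Bdh1, Fbp2 and Dppa4. Fbp2 differed by 1.80 in F0 and 0.38 in F4 tumors, and Ptgir, the prostacyclin receptor, by 1.47 and -0.14, a gap of 1.60 ± 0.35 that did not pass. The F0 difference of Ptgir became -0.21 under median scaling. A p that misses the threshold does not show that the fractions differed alike in both lines. The fractions lay on the same separate chips in both lines, so a chip effect would be shared by them.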

How the data were processed

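Intensities came from Illumina mouse bead arrays, 1 array per sorted fraction. The authors deposited a table of non-normalised probe intensities with a detection p-value for each of 25697 probes on 12 arrays. They also deposited a processed table of intensities, whose log2 was taken here. Per the submitters' processing notes, GenomeStudio was used, with its version not given. Per the labels' protocols, total RNA was amplified and biotinylated. Scanner settings are not given in the sources used here.

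Probe intensities were corrected for background with neqc in limma 3.58.1 (R 4.3.3), which estimates background from the detection p-values, adds an offset of 16, quantile normalises and takes log2. A probe entered when 2 or more arrays detected it (detection p under 0.01), which left 11224, of which 10438 had a gene name. The brightest probe stood for each of 7894 genes. Gene names came from the platform's annotation, and 12090 of 12096 named probes matched RefSeq by Entrez identifier. A model with 4 group means (fraction by line) over all 12 arrays was fitted with lmFit and eBayes, with 8 residual and 3.27 prior degrees of freedom, and Benjamini-Hochberg adjustment over all genes. The method was tested on simulated data. Alternatives were the pool as a block, other scalings, offsets and filters, array weights, the deposited processed table, the F0 arrays alone, and leaving out each array.

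The fractions of a pool come from the same 3 mice, so the pool number pairs the samples by design. The deviations of paired F0 arrays from their group means correlated at 0.393, and those of F4 pools at -0.0720 to 0.562. Labels name pools of mice as the replicates, so p-values measure the spread between pools.

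The comparison and the gene lists were chosen with earlier results of these data known. Genes were named by rule: the 10 largest called differences each way among genes detected on both arrays of the brighter fraction, 3 genes with the smallest p and the first 2 members of each list, the 5 smallest p for the difference between F0 and F4, the 5 widest gaps between pools, and a set always given, with clone-named genes skipped. The largest called differences were taken only from genes whose tumor and microenvironment arrays did not overlap. C1qb, Cd8b1, Csf3r, Dct, Gpnmb, Ifng, Il1r2, Irf1, Mmp9, Pmel, Sdc1, Siglech, Xbp1, Pglyrp1 and Slpi fall outside the rule and were chosen after their values were seen.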

Additional observations from a re-analysis of the deposited data

Results flagged for a closer look

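Bdh1, a ketone body dehydrogenase, differed in opposite directions in the lines: tumor minus microenvironment was -1.47 in F0 and 0.51 in F4 tumors, a gap of -1.98 ± 0.49 on the log2 scale that did not pass (adjusted p = 1, limma). Its raw F0 signals were low, at 157.5 and 141 on the tumor arrays against 113.7 and 141.8 on the microenvironment arrays. The negative sign in F0 therefore rests on the normalisation. Zp3, an egg coat glycoprotein, differed by -0.03 in F0 and 1.42 in F4 tumors, a gap of -1.44 ± 0.31 that did not pass either (adjusted p = 1, limma), and it was not detected on an F0 array.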

How the results depend on the processing

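Counts of genes called higher and lower in the tumor fraction were 130 and 373 with the pool as a replicate block, 0 and 58 with the F0 arrays alone, where 20 of the 65 called genes measured there were called again, 270 and 641 with those arrays and the block, 41 and 171 with array weights, 0 and 15 without background correction, 3 and 26 with an offset of 50, 1028 lower with median scaling and 1389 lower with quantile normalisation within each fraction. Leaving out each array in turn gave 0 to 277 higher and 1 to 393 lower. In alternatives chosen after seeing the data, the counts were 400 and 562 without F4 tumor array A and F4 microenvironment array D, and 1537 and 1084 without F0 microenvironment array B3 as well. At a detection p below 0.05, 463 genes were detected on both tumor arrays only and 180 on both microenvironment arrays only. Under median scaling, list medians were -0.10 for melanocyte regulators, 0.45 for neural crest, 0.092 for DNA replication, 0.19 for glycolysis, 0.37 for lipid synthesis, -0.68 for ribosomal proteins, 0.018 for ribosome biogenesis, -2.79 for B cells, -4.56 for neutrophils, -2.19 for dendritic cells, -1.47 for MHC class I, -3.27 for leukocyte genes, -1.28 for interferon response, -2.14 for endothelium, -1.95 for pericytes, -2.42 for muscle, -2.30 for keratinocytes, -3.10 for erythroid cells and -1.45 for mast cells. Without the F0 microenvironment array of pool B3 they were 0.59 for melanocyte regulators, 0.79 for cell cycle, -0.22 for ribosomal proteins, 0.54 for ribosome biogenesis, -5.61 for T cells, -4.27 for regulatory T cells, -4.52 for neutrophils, -1.67 for dendritic cells, -2.16 for MHC class I, -3.63 for leukocyte genes, -1.22 for interferon response, -1.38 for endothelium and -1.98 for immediate early genes. Signs turned under median scaling for Cdc6 (-0.40), Ckm (-0.61), Dppa4 (-0.54), Fosb (-0.030), Gata2 (-0.12), Hk1 (-0.29), Mitf (-0.71), Myc (-0.33), Ncl (-0.0039), Nes (-0.55), Pax3 (-1.07), Pgk1 (-0.54), Ptgir (-0.21), Pygm (-0.79), Slc16a3 (-0.85), Tpx2 (-0.89), Tyr (-0.11) and Wnk4 (-0.073). They turned under quantile normalisation within each fraction for Cdc6 (-0.15), Ckm (-0.34), Dppa4 (-0.26), Fosb (-0.055), Gata2 (-0.028), Hk1 (-0.10), Mitf (-0.43), Myc (-0.10), Nes (-0.26), Pax3 (-0.75), Pgk1 (-0.26), Pygm (-0.49), Slc16a3 (-0.55) and Tpx2 (-0.58). Without the 3 arrays named above they turned for Fosb (-1.14), Itgb4 (0.064), Mrc1 (0.91) and Slc2a1 (0.039), and Zp3 was 0 in the processed table. Leaving out single arrays gave ranges of -0.16 to 0.83 for Acaca, -3.10 to 0.38 for Col1a1, -1.36 to 0.10 for Col1a2, -1.14 to 1.25 for Fosb, -1.49 to 1.03 for H2-D1, -0.29 to 0.064 for Itgb4, -1.35 to 0.095 for Krt14, -1.61 to 0.91 for Mrc1, -0.20 to 0.36 for Ncl, -0.040 to 0.46 for Ndufa1, -1.46 to 0.0073 for Pparg, -0.58 to 0.039 for Slc2a1, -0.96 to 0.42 for Stat2 and -0.058 to 1.53 for Tyrp1. The cause was not tested for any of these. Genes not detected on the arrays of a fraction have only a bound there, or none where the brighter fraction did not exceed the lowest detected level.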
